A study of Mus musculus with 15 samples.

Results

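The comparison set 3 libraries treated with kainic acid (KA_L) against 3 untreated libraries (CTRL_L) and was described across every entry of the expression table that reached 1 TPM in 3 or more of these 6 libraries. That filter kept 10957 of 65964 entries. Of those kept, 9049 carried a gene symbol, 1775 were assembled loci with no gene name and 133 were Ensembl identifiers without a symbol. The study measured RNA in 15 libraries of C57BL/6 mouse brain in a model of temporal lobe epilepsy induced by kainic acid (KA), in 5 groups of 3. The other groups, named KA_H, APOE_L and APOE_H, entered the main tests only through an estimate of the spread shared by all 15 libraries. KA_L carries the label KA as its treatment and CTRL_L the label untreated, and both carry the name of the same epilepsy model. The letter L in the names of both groups is not defined in the labels, and neither are the dose of KA, the time after it, the age of the mice or the brain region. Nothing in the labels ties a library to an animal of its own, and the p-values therefore measure the spread among these libraries, which could be purely technical. TPM is transcript abundance scaled to transcript length and library size, and keeps no record of depth, so the number of reads behind a value is unknown.

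Kainic acid is an agonist of the kainate class of glutamate receptors, and in rodents it provokes prolonged seizures that are followed by neuron loss, gliosis and spontaneous seizures. Microglia, the resident macrophages of the brain, respond to such injury. Their resting state is marked by genes such as P2ry12 and Tmem119, and a state seen around damage, demyelination and amyloid (disease-associated microglia) by genes such as Cst7, Spp1, Lpl, Clec7a and Apoe, many of them concerned with lipid handling, phagocytosis and lysosomal work. Activated microglia also release chemokines of the CCL family, which recruit leukocytes through receptors such as CCR2.

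The libraries did not look like whole brain. Microglial genes were abundant, and the summed level of 20 homeostatic microglia genes was 41340, 55740 and 43340 TPM in KA_L and 110600, 44350 and 48790 TPM in CTRL_L, most of it from Cst3 alone. Those of neurons were close to 0: 16 neuron markers summed to 0.64, 30.5 and 1.23 TPM in KA_L and 14.2, 67 and 2.6 TPM in CTRL_L, and the neurofilament genes Nefl and Nefm were listed at 0 in all 6 libraries. Gfap, the astrocyte intermediate filament gene, was also listed at 0 in all 6, although 16 astrocyte markers together summed to 280, 403 and 198 TPM in KA_L and 412, 1666 and 1083 TPM in CTRL_L, mostly from Slc1a3, Glul and, in 2 CTRL_L libraries, Clu. Kainate receptor genes were at or near 0 except for Grik2, at 294 TPM in CTRL_L replicate 2. Choroid plexus transcripts split the controls: 10 markers summed to 57.8, 1281 and 166 TPM in KA_L and 139, 38940 and 23710 TPM in CTRL_L. Ttr, encoding the thyroid hormone carrier transthyretin, stood at 31.6, 781 and 114 TPM in KA_L and 54.1, 20666 and 10235 TPM in CTRL_L, so CTRL_L replicates 2 and 3 were high and CTRL_L replicate 1 was not. Results are therefore also given without those 2 control libraries. CTRL_L replicate 1 is then the only control, and limma takes the spread from the other groups and assumes that this lone library varies like them, so such values have no replicate check on the control side. Monocyte and neutrophil markers, 12 in all, summed to 161.9, 1.84 and 2.12 TPM in KA_L and 0, 38 and 224.9 TPM in CTRL_L. The neutrophil genes S100a8, S100a9 and Ly6g were listed at 0 throughout. Lymphocyte markers, 10 in all, summed to 161.3, 0.1 and 0.19 TPM in KA_L and 0.09, 0.07 and 23.2 TPM in CTRL_L. Of these, Nkg7 and Cd3g were seen at 101.5 and 59.6 TPM in KA_L replicate 1 and below 0.1 TPM in the other 5 libraries.

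**Figure D1:**
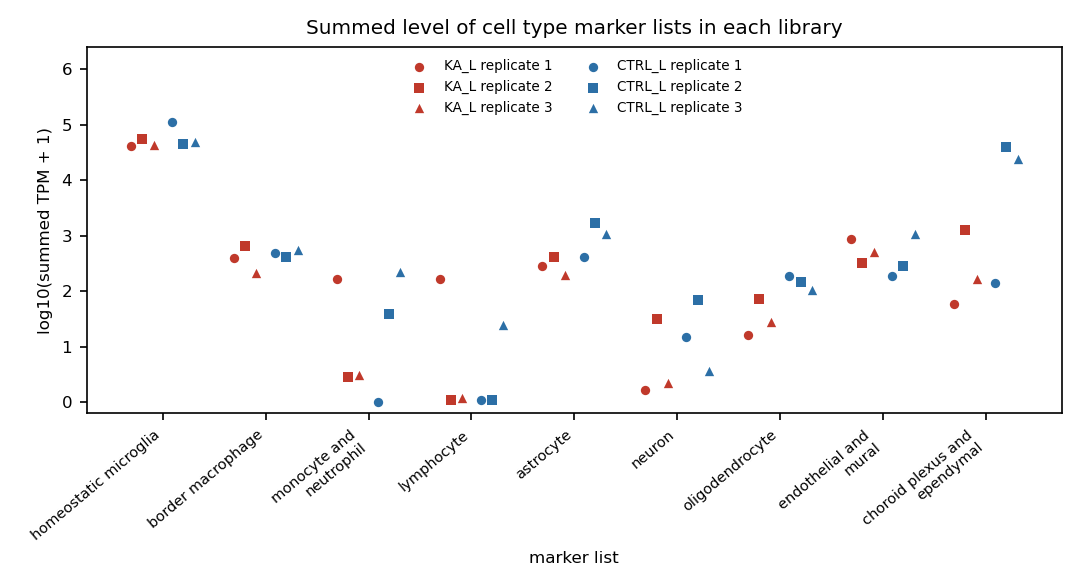
Summed TPM of each cell type marker list in each library, as log10(sum + 1), with KA_L in red and CTRL_L in blue and 1 symbol per replicate number. The homeostatic microglia list is the highest of these marker lists in each of the 6 libraries, and the choroid plexus list is high in CTRL_L replicates 2 and 3, at 38940 and 23710 TPM, against at most 1281 TPM in the KA_L libraries.

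Other features of the libraries moved with the groups. Oligodendrocyte markers, 14 in all, summed to 15, 70.8 and 26.8 TPM in KA_L and 185.1, 146.5 and 102.7 TPM in CTRL_L. Endothelial and mural markers, 16 in all, overlapped, with sums of 864, 323.6 and 512 TPM in KA_L and 185.5, 286 and 1054 TPM in CTRL_L. Assembled loci held 11.8 ± 0.366% of the total TPM in KA_L and 7.84 ± 1.11% in CTRL_L (mean ± SD, n = 3 each), and genes encoded by the mitochondrial genome held 4.77 ± 0.853% in KA_L and 7.75 ± 2.26% in CTRL_L. Rank correlations across the tested genes were low both within groups (0.416 to 0.448 in KA_L and 0.408 to 0.455 in CTRL_L) and between them (0.343 to 0.463). On the first principal component, which held 25.9% of the variance, KA_L replicates 1 and 3 stood at 108 and 154 and the CTRL_L libraries between -99.2 and -76.9. KA_L replicate 2 lay between the groups, at -0.209. Their part in the results below was not tested.

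In all, 161 of the 10957 entries (1.47%) differed between KA_L and CTRL_L, 55 higher in KA_L (0.502%) and 106 lower (0.967%), by limma on log2(TPM + 1) with Benjamini-Hochberg adjusted p under 0.05. At an unadjusted p under 0.05 there were 1480 entries, where 548 are expected by chance if the shared spread holds for these 2 groups. With a spread weight for each group the count was 889. The median log2 fold change over all tested entries was 0.01, and 50.1% were positive. The values of the 2 groups did not overlap in any of the 55 higher entries, nor in 105 of the 106 lower ones (Cnpy2 was the exception), against 839 (7.66%) and 667 (6.09%) of all tested entries. The spread came from all 15 libraries, and the median SD of log2 values was 1.46 in KA_L and 1.48 in CTRL_L, against 0.697 to 1.19 in the other 3 groups, so the shared estimate was below the spread of the 2 groups compared. With a spread weight for each group 18 entries were called, with the 9 libraries named L 4, and with the 6 libraries alone none (smallest adjusted p = 0.2, with 866 at an unadjusted p under 0.05). Without KA_L replicate 2 the count was 284, and without KA_L replicate 1 or 3, or CTRL_L replicate 2 or 3, it was 102, 98, 70 and 79 in that order. Without both choroid-bearing controls, with 1 control library left, it was 108, of which 33 were among the 161.

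**Figure D2:**
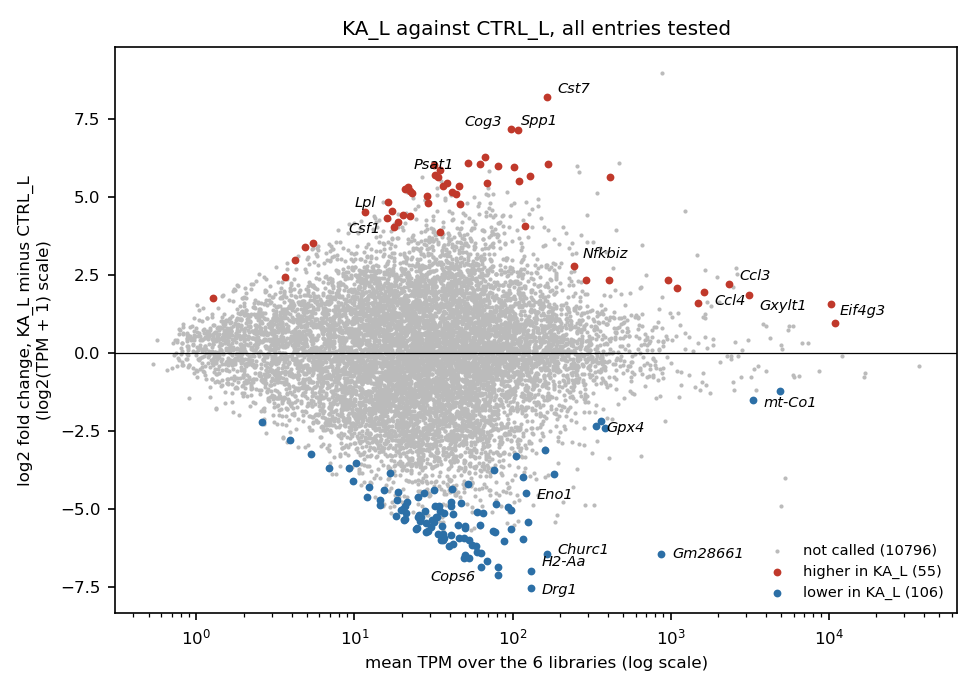
Log2 fold change of KA_L over CTRL_L (vertical axis, log2(TPM + 1) scale) against the mean TPM over the 6 libraries (horizontal axis, log scale) for all 10957 tested entries, with the 55 higher in red and the 106 lower in blue. Cst7, Spp1 and Cog3 are the highest of the called entries and Drg1 the lowest, and the 7 called higher entries with a mean of 1000 TPM or more have fold changes of at most 2.20.

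Most calls were genes near 0 in one group. Of the 55 higher entries 38 were under 1 TPM in at least 2 CTRL_L libraries, and of the 106 lower ones 84 were under 1 TPM in at least 2 KA_L libraries. Entries that passed the filter through 1 group alone (164 through KA_L and 140 through CTRL_L) supplied 23 and 49 of the calls, and such entries are low in the other group by the filter itself. Among the 4317 entries at 1 TPM or more in all 6 libraries, 13 higher and 12 lower were called. Fold changes of genes near 0 depend on the pseudocount of 1 TPM and are not ratios of levels. Several genes that every cell uses, such as the chaperonin gene Cct7, were listed at 0 in a KA_L library, so values are given by library and a 0 is described only as listed.

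Of 20 disease-associated microglia genes 16 were tested, 5 rose in KA_L (Cst7, Spp1, Lpl, Csf1 and Clec7a), none fell and 11 did not pass. For the list counts here and below, 0.502% of all tested entries were higher, 0.967% were lower and 50.1% had a positive fold change. Of the 5, Cst7, Spp1, Lpl and Clec7a passed the filter through KA_L alone, so their low values in CTRL_L are part of how they were kept. The median log2 fold change of the 16 was 2.63, and it was 0.08 among the 8 members at 1 TPM or more in all 6 libraries. Cst7 (ENSMUSG00000068129), which encodes cystatin F, an inhibitor of lysosomal cysteine proteases, stood at 331, 344 and 317 TPM in KA_L and 0.21, 0.13 and 0.06 TPM in CTRL_L. It had the smallest p-value of all entries (log2 fold change 8.20, SE 0.52, adjusted p = 1.97e-07) and was near 0 in every control and narrowly spread after KA. In bulk RNA, fewer cells of a type and less RNA per cell cannot be told apart.

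Spp1, encoding the secreted phosphoprotein osteopontin, stood at 112, 128 and 344 TPM in KA_L and 0.45, 0.12 and 0.04 TPM in CTRL_L (log2 fold change 7.17, SE 1.22, adjusted p = 0.00852). KA_L replicate 3 was the highest of its group, and no control reached 1 TPM. Lpl, the lipoprotein lipase that releases fatty acids from triglycerides, stood at 51.7, 24.2 and 26.4 TPM in KA_L and 0.35, 0.08 and 0.97 TPM in CTRL_L (log2 fold change 4.54, SE 0.87, adjusted p = 0.0161). Csf1, the growth factor on which microglia depend through their receptor CSF1R, stood at 39.5, 42.1 and 20.7 TPM in KA_L and 0.9, 3.51 and 0 TPM in CTRL_L (log2 fold change 4.04, SE 0.85, adjusted p = 0.0268). Both were low in level even after KA and clear of the controls. Clec7a, the pattern receptor dectin-1, was less even, at 3.82, 205 and 66.8 TPM in KA_L and 0, 0 and 0.02 TPM in CTRL_L (log2 fold change 5.34, SE 1.17, adjusted p = 0.0329), with 1 KA_L library close to the controls. With a spread weight for each group Cst7 kept the call (adjusted p = 4.11e-06 by limma). Spp1, Lpl, Csf1 and Clec7a lost it, at 0.0675, 0.151, 0.171 and 0.151 in that order. Cst7 and Spp1 were called under every omission of 1 library. The others lost the call in some: Lpl without KA_L replicate 1, Csf1 without KA_L replicate 1 or CTRL_L replicate 3, and Clec7a in each omission except that of KA_L replicate 1. Against CTRL_L replicate 1 as the only control, the adjusted p by limma was 3.54e-05 for Cst7, 0.11 for Spp1, 0.0711 for Lpl, 0.0736 for Csf1 and 0.183 for Clec7a.

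Apoe, the main lipid carrier of the brain and a member of the same list, stood at 3084, 3262 and 1969.6 TPM in KA_L and 161, 889 and 555 TPM in CTRL_L. All KA_L values lay above all CTRL_L values, but the difference did not pass (log2 fold change 2.65, SE 0.86, adjusted p = 0.155), and an exact two-sided permutation test gave p = 0.1, which is the lowest value that 3 libraries against 3 allow. Lgals3, encoding the lectin galectin-3, gave 68.7, 33.7 and 83.3 TPM in KA_L and 33.2, 0 and 0 TPM in CTRL_L, and Fabp5, a fatty acid carrier, gave 0.12, 41.3 and 255 TPM in KA_L and 0, 6.81 and 0 TPM in CTRL_L. Neither passed. At the other end of the list Ctsb and Ctsd, cathepsin genes of the lysosome, and Cd63 had negative fold changes of -0.62, -0.10 and -0.45.

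**Figure D3:**
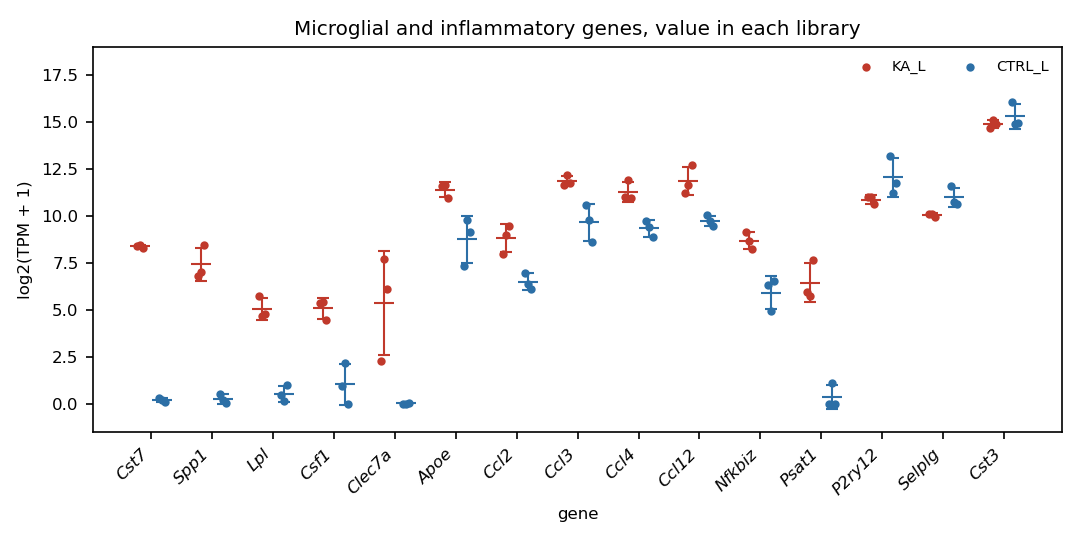
Expression as log2(TPM + 1) of microglial and inflammatory genes in each of the 3 KA_L (red) and 3 CTRL_L (blue) libraries, with the mean and SD of the log2 values. Cst7, Spp1, Lpl, Csf1, Clec7a and Psat1 are near 0 in CTRL_L, Ccl2, Ccl3 and Ccl4 are expressed in both groups and higher in KA_L, and P2ry12, Selplg and Cst3 are high in both.

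Of 14 chemokine genes 10 were tested, 3 rose in KA_L, none fell and 7 did not pass, where 0.502% of all tested entries were higher. Their median was 1.80 (0.98 against CTRL_L replicate 1 alone). Ccl3, which encodes macrophage inflammatory protein 1-alpha, stood at 3249, 4611 and 3440.3 TPM in KA_L and 1535, 875 and 395 TPM in CTRL_L (log2 fold change 2.20, SE 0.42, adjusted p = 0.0166). Ccl4, which encodes the related protein 1-beta, stood at 2019.6, 3827 and 1981 TPM in KA_L and 848, 686 and 462 TPM in CTRL_L (log2 fold change 1.94, SE 0.41, adjusted p = 0.0268). Ccl2, which draws monocytes through CCR2, was less abundant, with 253, 508 and 717 TPM in KA_L and 125, 83.1 and 67.8 TPM in CTRL_L (log2 fold change 2.33, SE 0.54, adjusted p = 0.0429). No control reached the KA_L values of any of them. None kept the call with a spread weight for each group (adjusted p by limma = 0.151 for Ccl3, 0.234 for Ccl4 and 0.262 for Ccl2). Ccl12, a mouse chemokine that also binds CCR2, was as high but varied more, at 2418, 3243 and 6638 TPM in KA_L and 1042, 842 and 709 TPM in CTRL_L, and did not pass (adjusted p = 0.0663). The interferon-induced Cxcl10 was 0.04, 90.8 and 249 TPM in KA_L and 0.06, 0 and 0 TPM in CTRL_L and was not tested, since it reached 1 TPM in only 2 libraries. Ccl3 lost the call without CTRL_L replicate 3, Ccl4 without KA_L replicate 2 or CTRL_L replicate 2 or 3, and Ccl2 without any of 4 libraries (KA_L 2 or 3, CTRL_L 2 or 3). Against CTRL_L replicate 1 as the only control they had adjusted p = 0.232, 0.246 and 0.289 for Ccl3, Ccl4 and Ccl2.

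The start-site sequences of 3 of these genes are shown because they carry the 2 groups of higher genes: Cst7 with the smallest p, the most abundant called chemokine gene Ccl3, and the growth factor gene Csf1. They are the 250 bases before the start of transcription, 5′ to 3′ on the gene's strand, from RefSeq on GRCm38.p6, and capitals mark matches on either strand to a common form of the NF-kB binding site, which is GGGA, then 3 or 4 bases of any kind, then CC. Cst7 lies on the plus strand of chromosome 2 (chr2:150570165-150570414), Ccl3 on the minus strand of chromosome 11 (chr11:83649379-83649628) and Csf1 on the minus strand of chromosome 3 (chr3:107760470-107760719).
Cst7: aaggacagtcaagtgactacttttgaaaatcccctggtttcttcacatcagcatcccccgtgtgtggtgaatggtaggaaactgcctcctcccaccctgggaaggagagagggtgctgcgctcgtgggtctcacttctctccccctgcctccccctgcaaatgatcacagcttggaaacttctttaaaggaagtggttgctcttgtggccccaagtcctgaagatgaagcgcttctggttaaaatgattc
Ccl3: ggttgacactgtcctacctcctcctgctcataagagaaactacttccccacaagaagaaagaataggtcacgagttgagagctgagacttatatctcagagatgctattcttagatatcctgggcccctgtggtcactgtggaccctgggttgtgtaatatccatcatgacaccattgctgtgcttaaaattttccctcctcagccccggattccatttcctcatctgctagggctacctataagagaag
Csf1: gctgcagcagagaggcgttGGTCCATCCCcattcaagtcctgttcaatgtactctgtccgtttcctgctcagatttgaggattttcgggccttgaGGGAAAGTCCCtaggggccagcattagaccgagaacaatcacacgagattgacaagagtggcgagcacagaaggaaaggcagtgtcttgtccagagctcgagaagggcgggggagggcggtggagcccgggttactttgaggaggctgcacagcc
Csf1 held 3 matches, of which 2 overlap on opposite strands, and Cst7 and Ccl3 held none. Spp1, Ccl12 and Clec7a also held none, and 1 of the 3 start sites of Apoe held 1. Lpl, Ccl2, Ccl4 and Nfkbiz were looked up too and had no entry. Of 32851 promoters of this length 26.9% held one. A match is a description of the letters and not of binding.

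Of 20 inflammatory cytokine and NF-kB feedback genes 16 were tested, 1 rose, none fell and 15 did not pass (median 0.56). Leaving out KA_L replicate 2 or 3 put that median at 0.19 or 0.98, and leaving out CTRL_L replicate 1 or 2 put it at 1.33 or 0.01. Against CTRL_L replicate 1 alone it was -0.81. The gene that rose was Nfkbiz, encoding the nuclear inhibitor IkB-zeta, which is induced by Toll-like receptor and interleukin-1 signalling. It stood at 567, 407 and 301 TPM in KA_L and 77.3, 29.5 and 91.3 TPM in CTRL_L (log2 fold change 2.77, SE 0.57, adjusted p = 0.0237), with every KA_L library above every control. It lost the call without KA_L replicate 1 or CTRL_L replicate 2, and with a spread weight for each group (adjusted p = 0.157 by limma). Nfkbia, the classical NF-kB inhibitor gene, stood at 172, 279 and 261 TPM in KA_L and 442, 204 and 116 TPM in CTRL_L and overlapped between the groups. The receptor genes Tlr4 and Nlrp3 were low and did not pass (adjusted p = 0.466 and 0.544).

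Homeostatic microglia genes were high in both groups and none passed. All 20 were tested and all reached 1 TPM in every library, 3 fold changes were positive and 17 negative, and their median was -0.45. It was 0.04 without CTRL_L replicate 1, -0.73 without CTRL_L replicate 2 and -1.37 against CTRL_L replicate 1 alone. P2ry12, the ADP receptor that guides microglial processes, stood at 2051, 2039.8 and 1565 TPM in KA_L and 9373, 2398 and 3397 TPM in CTRL_L (adjusted p = 0.224), with CTRL_L replicate 1 far above the rest. Selplg, a selectin ligand gene, stood at 1115, 1086 and 999.5 TPM in KA_L and 3067, 1699 and 1582 TPM in CTRL_L (adjusted p = 0.251). The most abundant of them, Cst3, which encodes cystatin C, stood at 26204, 35535 and 30302 TPM in KA_L and 69311, 30168 and 31371 TPM in CTRL_L, and Tyrobp, the adaptor of the receptor TREM2, at 4861, 7051 and 4119 TPM in KA_L and 7138, 3169 and 3631 TPM in CTRL_L. In these 4 genes CTRL_L replicate 1 was the highest of the 6 libraries.

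Of 7 tested MHC class II genes, which present antigen to T cells, 6 had a negative fold change (median -1.21) and 1 fell. The median was -3.33 without CTRL_L replicate 2 and -1.91 against CTRL_L replicate 1 alone. H2-Aa, an alpha chain of the class II molecule, stood at 0.1, 0.09 and 0.13 TPM in KA_L and 123, 32.4 and 629 TPM in CTRL_L (log2 fold change -6.96, SE 1.01, adjusted p = 0.0037). It was near 0 after KA in all 3 libraries and varied widely among the controls. H2-Aa passed the filter through CTRL_L alone, so its low values in KA_L are part of how it was kept. The invariant chain gene Cd74 stood at 58.4, 18.6 and 37.5 TPM in KA_L and 137, 52.8 and 981 TPM in CTRL_L and did not pass (adjusted p = 0.231). Of 15 tested class I and complement genes none passed, and their median of 0.01 ran from -0.14 to 0.12 over the scalings tried, from -0.32 to 0.34 when 1 library was left out, and was -0.51 against CTRL_L replicate 1 alone. B2m, the class I light chain, had 7810, 8625 and 8137 TPM in KA_L and 6871, 8041 and 4955 TPM in CTRL_L. Interferon-stimulated genes had a median of 1.88 over 14 tested members (1.01 without CTRL_L replicate 1 and 1.19 without KA_L replicate 2) and none passed. Of these fold changes 10 were positive and 4 negative, Irf7 among the negative (-3.09). Ifitm3 stood at 101, 217 and 248 TPM in KA_L and 0.13, 57.2 and 54.4 TPM in CTRL_L (adjusted p = 0.127).

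Immediate early genes, which neurons and glia induce within minutes of stimulation, had none of 18 tested members called and a median of 0.39. That median was 0.23 without KA_L replicate 2, 0.01 without KA_L replicate 3, 0.02 without CTRL_L replicate 3 and -0.08 against CTRL_L replicate 1 alone. Fos stood at 1829.7, 2479.8 and 2084 TPM in KA_L and 1832, 1269.6 and 1590 TPM in CTRL_L (adjusted p = 0.578).

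Energy metabolism genes tended to have negative fold changes, where 50.1% of all tested entries were positive, and few passed. Of 18 tested glycolysis genes 16 had a negative fold change (median -1.97), and 2 fell. Eno1, encoding the glycolytic enolase alpha, stood at 0.54, 36.3 and 12.6 TPM in KA_L and 101, 340.4 and 241 TPM in CTRL_L (log2 fold change -4.47, SE 0.92, adjusted p = 0.0237). Aldoc, an aldolase gene that is also an astrocyte marker, stood at 2.76, 0 and 0.04 TPM in KA_L and 170.2, 23.9 and 105 TPM in CTRL_L (log2 fold change -5.60, SE 1.32, adjusted p = 0.0451). Both groups were separate for each gene. Aldoa had 234, 131 and 14.5 TPM in KA_L and 510.2, 604 and 559 TPM in CTRL_L and Ldha, which encodes lactate dehydrogenase A, had 12.2, 23.5 and 14.8 TPM in KA_L and 48.4, 250.3 and 92.5 TPM in CTRL_L, and neither passed (adjusted p = 0.0841 and 0.0594). Aldoc was called under no omission of 1 library, and Eno1 lost the call without CTRL_L replicate 2 or 3. Neither was called with a spread weight for each group (adjusted p by limma = 0.381 for Aldoc and 0.101 for Eno1).

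Respiratory chain genes of the nucleus had a negative fold change in 35 of 40 (median -1.01), and none passed. The median was -0.50 among members at 1 TPM or more in all 6 libraries and -0.29 against CTRL_L replicate 1 alone. Ndufa1, a subunit of complex I, came nearest, at 138, 314 and 471 TPM in KA_L and 530.4, 1279 and 2792 TPM in CTRL_L (adjusted p = 0.0725). Among 14 mitochondrially encoded genes 12 were negative (median -0.72, -0.48 without KA_L replicate 3 and -0.15 against CTRL_L replicate 1 alone) and 1 fell. This was mt-Co1, the catalytic subunit of cytochrome c oxidase, at 2498, 1508 and 1247 TPM in KA_L and 4659, 4059.8 and 5838 TPM in CTRL_L (log2 fold change -1.52, SE 0.29, adjusted p = 0.0159). It lost the call without KA_L replicate 3 or CTRL_L replicate 3, and with a spread weight for each group (adjusted p = 0.191 by limma). A further lower entry, Gm28661, stood at 50.9, 41 and 2.54 TPM in KA_L and 2196, 1472 and 1494 TPM in CTRL_L and is named a pseudogene, but its transcript is identical to mt-Co2 over all 681 aligned bases. The mt-Co2 entry itself stood at 7107, 7810 and 5787 TPM in KA_L and 7234, 11808 and 12721 TPM in CTRL_L. It overlapped between the groups and did not pass (log2 fold change -0.59, adjusted p = 0.344 by limma). Gm29216, which is 99.8% identical to mt-Co1 over 483 aligned bases, was also lower. Reads of such entries and their mitochondrial copies cannot be assigned with certainty.

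Proteasome and COP9 signalosome genes had a negative fold change in 25 of 31 tested (median -1.67), and 2 fell. The median was -0.72 without KA_L replicate 1 and -0.75 among members at 1 TPM or more in all 6 libraries. Psmb5, the chymotrypsin-like catalytic subunit of the proteasome, stood at 0, 1.74 and 0.12 TPM in KA_L and 302, 16.2 and 54.4 TPM in CTRL_L (log2 fold change -5.51, SE 0.92, adjusted p = 0.00716). Cops6, a COP9 subunit gene, stood at 0, 0.41 and 0.08 TPM in KA_L and 122, 158 and 202 TPM in CTRL_L (log2 fold change -7.10, SE 1.21, adjusted p = 0.00863). Both were called under each omission of 1 library. With a spread weight for each group Psmb5 kept the call (adjusted p = 0.0416 by limma) and Cops6 lost it (0.0675). Cops6 passed the filter through CTRL_L alone, so its low values in KA_L are part of how it was kept. Cytosolic ribosomal protein genes had none of 40 called and a median of 0.08, with either sign over the alternatives (-0.02 to 0.18 over the scalings, -0.23 to 0.22 when 1 library was left out and -0.36 against CTRL_L replicate 1 alone).

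Antioxidant genes had a median of -1.22 over 19 tested members (-0.72 without KA_L replicate 1 and -0.80 without CTRL_L replicate 2) and 2 fell. Cat, the peroxisomal catalase gene, stood at 0, 0.89 and 0.02 TPM in KA_L and 31.7, 39.1 and 79.1 TPM in CTRL_L (log2 fold change -5.24, SE 1.05, adjusted p = 0.0206). Gpx4, the glutathione peroxidase that reduces lipid hydroperoxides, stood at 216, 59.5 and 98.2 TPM in KA_L and 438, 643 and 577 TPM in CTRL_L (log2 fold change -2.32, SE 0.50, adjusted p = 0.0311). The groups were separate for each. Cat passed the filter through CTRL_L alone, so its low values in KA_L are part of how it was kept. Gpx4 lost the call without KA_L replicate 2 or 3 or CTRL_L replicate 2 or 3, and Cat without CTRL_L replicate 2 or 3. Neither was called with a spread weight for each group (adjusted p by limma = 0.185 for Gpx4 and 0.135 for Cat). Lipid and cholesterol handling genes were split: Lpl rose, Hmgcs1 fell and 17 of 19 did not pass. Their median of -0.06 had no stable sign, at -0.38 to 0.67 when 1 library was left out. It was 0.79 among members at 1 TPM or more in all 6 libraries. Neither Lpl nor Hmgcs1 was called with a spread weight for each group (adjusted p by limma = 0.151 and 0.234). Hmgcs1, encoding the cytosolic HMG-CoA synthase of the sterol pathway, stood at 0.02, 2.18 and 0.05 TPM in KA_L and 55.7, 114 and 26.8 TPM in CTRL_L (log2 fold change -5.23, SE 1.23, adjusted p = 0.0442) and lost the call in each omission of 1 library except that of KA_L replicate 2. Against CTRL_L replicate 1 as the only control, H2-Aa, Psmb5, Drg1 and Churc1 had adjusted p = 0.0144, 0.00133, 0.0298 and 0.00883 by limma, and Nfkbiz, Eno1, Aldoc, mt-Co1, Cops6, Cat, Gpx4 and Hmgcs1 had values between 0.106 and 0.272, with the same signs.

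**Figure D4:**
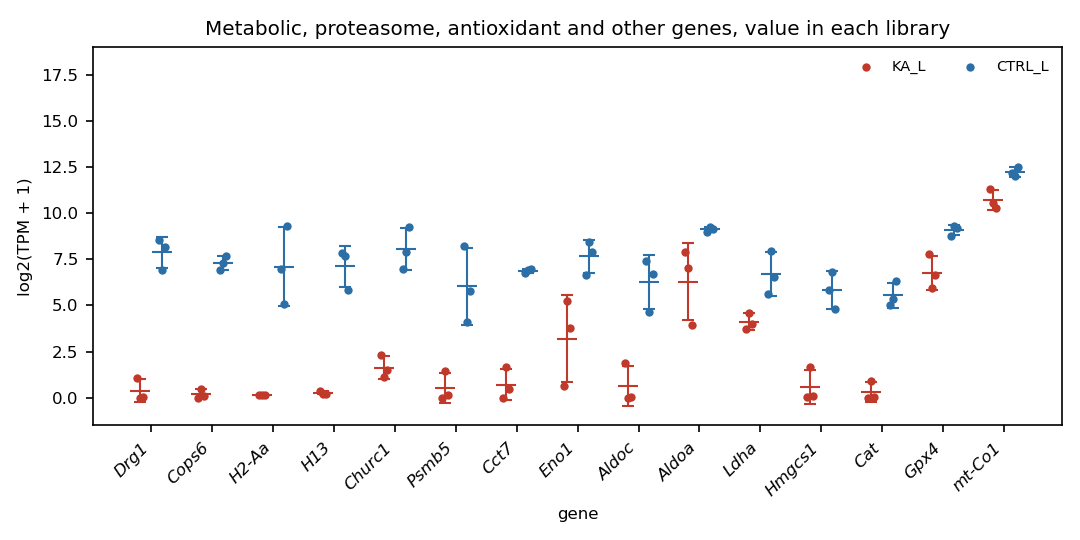
Expression as log2(TPM + 1) of metabolic, proteasome, antioxidant and other genes in each of the 3 KA_L (red) and 3 CTRL_L (blue) libraries, with the mean and SD of the log2 values. Drg1, Cops6, H2-Aa and H13 are near 0 in every KA_L library, and Cops6, H2-Aa and H13 passed the filter through CTRL_L alone. Aldoa, Gpx4 and mt-Co1 are expressed in both groups and lower in KA_L. Aldoa and Ldha did not pass.

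**Figure D5:**
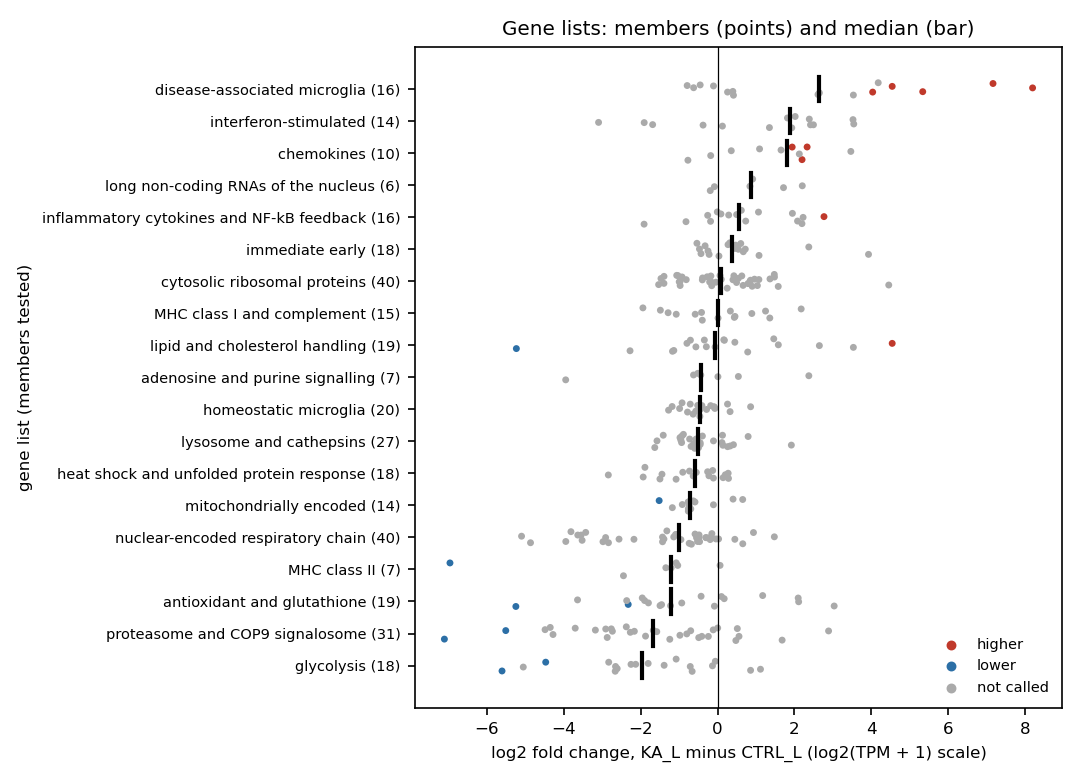
Log2 fold change of KA_L over CTRL_L for the tested members of each gene list with 5 or more of them (points; red higher, blue lower, grey not called) and the median of each list (bar). Over all tested members the median is 2.63 for disease-associated microglia and -1.97 for glycolysis. Among members at 1 TPM or more in all 6 libraries it is 0.08 for 8 disease-associated microglia genes and 1.94 for 7 chemokine genes. For interferon-stimulated genes it is 2.42, but over only 3 of the 14 tested members, and none of the 14 passed.

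The 15 largest increases with a symbol, beside Cst7 and Spp1, included protein-coding genes, small nucleolar RNA genes and a pseudogene. Cog3, a subunit of the Golgi tethering complex, stood at 293, 78.4 and 279 TPM in KA_L and 0, 0 and 1.4 TPM in CTRL_L (log2 fold change 7.13, SE 1.62, adjusted p = 0.037). Eps15, an endocytic adaptor gene, stood at 196, 117 and 59.2 TPM in KA_L and 0.18, 0.94 and 1.16 TPM in CTRL_L (log2 fold change 6.04, SE 1.05, adjusted p = 0.00944). Psat1, which encodes phosphoserine aminotransferase of serine synthesis, stood at 61.4, 51.6 and 198 TPM in KA_L and 0, 1.14 and 0 TPM in CTRL_L (log2 fold change 6.07, SE 0.83, adjusted p = 0.00248). Cog3 lost the call in each omission except that of KA_L replicate 2, and Psat1 in none. With a spread weight for each group Psat1 kept the call (adjusted p = 0.0269 by limma). Cog3 and Eps15 lost it, at 0.229 and 0.0796. The other largest ones were Sec24b (COPII coat), Gcnt2, Fuca2, Ppcs, Unc45b and the small nucleolar RNA genes Snord118 and Gm24616, the processed pseudogene Gm17212, and Gm49392 and CT030661.1. Of these, Sec24b, Ppcs, Gm17212, Gm49392 and CT030661.1 passed the filter through KA_L alone. Their low values in CTRL_L are part of how they were kept. Sec24b was uneven in KA_L, at 22.75, 58.81 and 322.97 TPM. Whether reads were counted by strand is not given in the sources used here, so overlapping genes cannot be told apart.

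The genes with the largest decreases belonged to no single list. Drg1, a GTPase gene linked to translation, stood at 1.13, 0 and 0.04 TPM in KA_L and 379, 122 and 284 TPM in CTRL_L (log2 fold change -7.51, SE 1.10, adjusted p = 0.0037). H13, encoding signal peptide peptidase, stood at 0.3, 0.17 and 0.17 TPM in KA_L and 225, 205 and 55.8 TPM in CTRL_L (log2 fold change -6.83, SE 0.92, adjusted p = 0.00248). Churc1 stood at 3.92, 1.16 and 1.79 TPM in KA_L and 126, 238 and 615 TPM in CTRL_L (log2 fold change -6.42, SE 0.68, adjusted p = 0.00022), the smallest p of the lower genes. All 3 were called in every omission of 1 library. H13, and Atp1b1 and Cnn3 described next, passed the filter through CTRL_L alone. Their low values in KA_L are part of how they were kept. The ion pump subunit gene Atp1b1 (adjusted p = 0.00403) and Cnn3, an actin-binding calponin (adjusted p = 0.0037), were at 0.1 TPM or less in KA_L, and in CTRL_L both were lowest in replicate 1, at 20.9 and 30.1 TPM, and higher in the 2 choroid-bearing libraries. Cct7, a chaperonin subunit gene, was even among the controls, at 0, 2.14 and 0.41 TPM in KA_L and 108, 118 and 123 TPM in CTRL_L (log2 fold change -6.16, SE 1.11, adjusted p = 0.0125).

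Among the 84 entries with a mean of 1000 TPM or more 7 were higher and 2 lower (10.7%), against 0.442% of entries below 10 TPM, 1.68% from 10 to 100 TPM and 1.7% from 100 to 1000 TPM. The next 3 entries were picked after their values were seen. Gxylt1, a xylosyltransferase gene, stood at 4437, 5291 and 4829.5 TPM in KA_L and 1759, 1146 and 1218 TPM in CTRL_L (log2 fold change 1.84, SE 0.35, adjusted p = 0.0152), and Eif4g3, encoding a scaffold of translation initiation, at 14924, 13908 and 14215 TPM in KA_L and 5305, 9528 and 7999 TPM in CTRL_L (log2 fold change 0.96, SE 0.21, adjusted p = 0.0354). The assembled locus MSTRG.1803 stood at 12409, 17734 and 16044 TPM in KA_L and 3526, 7351 and 5239 TPM in CTRL_L. All 3 were separate between the groups, and 32.1% of entries with a mean of 1000 TPM or more were separate and higher in KA_L. None of the 3 was called with a spread weight for each group (adjusted p by limma = 0.234 for Gxylt1, 0.234 for Eif4g3 and 0.185 for MSTRG.1803). Gxylt1 also passed in the 9 libraries named L, as did Cst7 and Churc1.

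Of the 55 higher 60.0% were protein-coding and 10.9% assembled loci, and of the 106 lower 87.7% and 2.83%, against 73.4% and 16.2% of all tested. The protein-coding genes among the lower had a median gene span of 17.0 kb and a median exon length of 2.81 kb, against 29.0 kb and 5.18 kb among the higher and 29.1 kb and 4.8 kb among all tested entries. These are descriptions of the annotation, with no test.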

How the data were processed

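RNA was sequenced from mouse brain after Trizol extraction and a TruSeq preparation from total RNA, per the labels' protocols. The authors deposited TPM for 65964 entries in 15 libraries. Reads were aligned with STAR to GRCh38, per the submitters' processing notes; GRCh38 names a human assembly, whereas the identifiers are mouse Ensembl genes. The counting tool, annotation and strand setting are not given in the sources used here. Symbols came by identifier from GENCODE M21 (GRCm38). Tests used limma 3.58.1 in R 4.3.3 on log2(TPM + 1), with all 15 libraries, a mean per group, a mean-variance trend and Benjamini-Hochberg adjustment over 10957 entries. The code was tested on simulated data. The genes named were Apoe, the 15 largest called changes per direction with no overlap and a mean of at least 5 TPM in the higher group, every called list member, and per list the 4 smallest p-values and 2 most abundant members. Cd63, Ctsb, Cxcl10, Lgals3, Grik2, Gm29216, Cnpy2, Gxylt1, Eif4g3 and MSTRG.1803, and the absent markers named, fall outside that rule and were picked after their values were seen. The comparison, its members and the 30 gene lists were chosen with earlier results of these data known, so list counts are descriptions with no test. Alternatives covered pseudocounts, filters, scalings, the libraries fitted and omission of each replicate.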

Additional observations from a re-analysis of the deposited data

How the results depend on the processing

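All 161 called entries kept the sign of their fold change in every setting in which they were tested. This was largely fixed in advance and is no sign of stability. The groups did not overlap in any of the 55 higher entries, nor in 105 of the 106 lower ones. Leaving out a library or changing the pseudocount cannot turn the sign of such entries. Other filters or fitted libraries leave both group means unchanged. The number called did not hold. Counts below are all, higher and lower calls, against 161, 55 and 106. With no filter they were 58, 17 and 41, with 1 TPM in 3 of the 15 libraries 100, 30 and 70, with 1 TPM in a library of each group 19, 5 and 14, and with 1 TPM in all 6 libraries 9, 3 and 6. Fitted with the 9 libraries named L they were 4, 3 and 1, with the 9 libraries outside the APOE condition 21, 8 and 13, and with the 6 libraries alone 0, 0 and 0 by limma, with 866 at an unadjusted p under 0.05. A spread weight per group gave 18, 3 and 15, and upper-quartile scaling 106, 31 and 75. The fit with the replicate number as a block gave 104, 35 and 69. Same-numbered libraries did not deviate together (correlations -0.0281 to 0.00501), and differently numbered ones gave -0.0292 to 0.0266. With so few noisy libraries these values cannot show whether same-numbered ones share more than a number. Leaving out 1 library gave 70 to 284 calls in all, 24 to 75 higher and 46 to 209 lower, and 41 entries were called each time. The 2 choroid-bearing CTRL_L libraries were left out as a choice made after seeing the data, as was the spread weight. Without them, with 1 control library left, 54 entries were higher and 54 lower, and the uncalled fold changes of Tyrobp, mt-Atp6, Enpp2 and Ttr turned to -0.45, 0.03, 0.03 and 1.38. The cause of these shifts was not tested. Depth is unknown, and 3 libraries a group limit the precision.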

Other observations

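Several gene groups not described above held no called entry. Lysosome and cathepsin genes had a negative fold change in 19 of 27 tested (median -0.52, -0.27 without KA_L replicate 3, -0.19 without CTRL_L replicate 1 and -0.92 against it alone), with Ctss, the microglial cathepsin S gene, at 4628, 5211 and 4940.1 TPM in KA_L and 9296, 3392 and 2967 TPM in CTRL_L. Heat shock and unfolded protein response genes were negative in 14 of 18 (median -0.59, -1.05 against CTRL_L replicate 1 alone). Hsp90b1, a chaperone of the endoplasmic reticulum, had 168, 145 and 50.3 TPM in KA_L and 284, 345 and 289.6 TPM in CTRL_L (adjusted p = 0.194, limma). Among 7 tested adenosine and purine signalling genes (median -0.44, 0.11 without KA_L replicate 1, 0.16 without CTRL_L replicate 1 and -1.85 against CTRL_L replicate 1 as the only control), the ATP-gated channel gene P2rx4 had 205, 25.9 and 103 TPM in KA_L and 31.6, 7 and 14.9 TPM in CTRL_L (adjusted p = 0.26).

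Among 6 tested members of a list of long non-coding RNA genes (median 0.88, 0.47 without CTRL_L replicate 2), Gas5 stood at 908, 1215 and 1014 TPM in KA_L and 511, 549.9 and 688 TPM in CTRL_L (adjusted p = 0.234), separate between the groups, and Malat1 overlapped. Of 20 cell cycle genes 4 were tested and their median was -0.01. Of 16 glutamate receptor and transporter genes 4 were tested, among them Grm5, at 0.01, 0.01 and 0.38 TPM in KA_L and 48.1, 4.62 and 10.7 TPM in CTRL_L (adjusted p = 0.0841).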
